A study of Mus musculus with 6 samples.

Results

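The genes described here carry the symbols of the cytoplasmic translation initiation factors (eIF) and elongation factors (eEF) of the mouse, though not every one encodes such a factor. They were chosen by symbol: a probe set counted if its annotation gave exactly 1 gene symbol that began with Eif or Eef and a digit, the eIF2 kinases Eif2ak1 to Eif2ak4 and the synthetase partner Eef1e1 were left out, and each gene was read from its probe set with the highest mean over the 6 arrays. This gave 56 genes, read by 66 probe sets, of 19937 genes measured by probe sets with 1 symbol. Of the 56, 3 encode repressors that bind eIF4E and 6 encode enzymes that modify elongation factors. For brevity all 56 are called factors. The symbol rule uses no measured difference. Gene expression had been measured on 6 Affymetrix arrays in haematopoietic stem and progenitor cells transformed by HoxA9 and Meis1 (A9M cells), a mouse model of acute myeloid leukaemia, grown in serum with the cytokines IL3, IL6 and SCF. In 3 samples the cells had been kept for 5 days with UNC0638, an inhibitor of the histone H3 lysine methyltransferases G9a and GLP, and in 3 samples for 5 days with DMSO, its solvent. HoxA9 and Meis1 were present in both groups. The dose of UNC0638, whether the transformed cells were 1 clone, and whether the numbered samples were separate cultures are not stated in the labels. The p-values therefore reflect only how these 6 samples vary, and that variation may be technical.

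Initiation starts when eIF2, loaded with GTP and the initiator tRNA, joins eIF1, eIF1A, eIF3 and eIF5 on the small ribosomal subunit. eIF4F, made of the cap-binding protein eIF4E, the scaffold eIF4G and the helicase eIF4A, brings that complex to the capped mRNA, and eIF5B joins the large subunit at the start codon. eIF2B recharges eIF2 with GTP, and eIF4E-binding proteins hold eIF4E away from eIF4G until mTORC1 phosphorylates them. In elongation eEF1A delivers each aminoacyl-tRNA, the eEF1B complex recharges eEF1A and eEF2 moves the ribosome along the mRNA. Leukaemic and other fast-dividing cells make these factors at high levels, and many of the genes are known targets of Myc.

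Promoter sequence in the RefSeq-derived table used here (GRCm38.p6, 250 bases before to 50 after an annotated start) was matched by symbol for 43 of the 56 genes, with 57 promoters. The motif CACGTG, the E-box bound by Myc and its relatives, lay in 14 of these promoters (24.6%), against 7.15% of all 32851 promoters in the table, 8.24% of the promoters of genes tested, and 11.6% of those of genes at least as bright on the arrays as the median factor. The motif CCGGAAG, the core bound by ETS factors, lay on either strand in 18 (31.6%), against 8.86%, 12.1% and 20.9% in the same order. CACGTG reads the same on both strands and was counted once. Promoters of 1 gene can overlap, so 1 site can count in more than 1 of them, as in Eif4e2, Eif4enif1 and Eif5a. By gene, 12 of the 43 held CACGTG and 15 held CCGGAAG, and shares by gene were not computed for the other sets. Of 3 other motifs searched, that of NRF1 lay in 1 of the 57 promoters (1.75%), against 0.971%, 1.45% and 2.96%. TGATGNAA (a C/EBP-ATF composite) lay in 2 (3.51%), against 3.97%, 3.08% and 1.87%, and AAGATGGCG (YY1) in 2 (3.51%), against 1.40%, 1.93% and 4.20%, each on either strand and in the same order. For NRF1 and YY1 the factors' share lay above that of all promoters and below that of genes at least as bright as the median factor. Counts of 1 and 2 promoters are too few to rank these shares. Of the 8 eIF3 subunit genes with a promoter in the table, 3 held CACGTG (Eif3a, Eif3f and Eif3k) and 4 held CCGGAAG (Eif3c, Eif3d, Eif3l and Eif3m). The 12 genes with CACGTG in a promoter had a median log2 difference of -0.096 between UNC0638 and DMSO, and the 31 without it had one of -0.13. The 15 genes with CCGGAAG had a median of -0.14 and the 28 without it one of -0.12. These are letters found in a window and not measured binding. The 120 bases before the start are shown for 4 of the 7 eIF3 subunit genes that held a motif, since eIF3 was the complex with the most subunits on the array, and for Eef2, the translocation factor. They were picked because they hold a motif, and are read 5′ to 3′ on the gene's strand, with CACGTG and CCGGAAG (or its complement CTTCCGG) in capitals.
Eif3d, chr15:77970825-77970944, minus strand: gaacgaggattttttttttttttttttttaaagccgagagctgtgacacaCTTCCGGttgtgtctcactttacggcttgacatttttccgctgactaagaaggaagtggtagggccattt
Eif3m, chr2:105017028-105017147, minus strand: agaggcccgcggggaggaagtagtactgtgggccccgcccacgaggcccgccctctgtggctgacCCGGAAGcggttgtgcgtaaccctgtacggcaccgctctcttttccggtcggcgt
Eif3f, chr7:108934295-108934414, plus strand: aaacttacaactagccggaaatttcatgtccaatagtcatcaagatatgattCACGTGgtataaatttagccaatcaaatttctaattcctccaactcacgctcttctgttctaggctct
Eif3k, chr7:28981889-28982008, minus strand: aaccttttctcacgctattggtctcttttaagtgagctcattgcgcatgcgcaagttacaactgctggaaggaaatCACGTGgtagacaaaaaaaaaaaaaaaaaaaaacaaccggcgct
Eef2, chr10:81176511-81176630, plus strand: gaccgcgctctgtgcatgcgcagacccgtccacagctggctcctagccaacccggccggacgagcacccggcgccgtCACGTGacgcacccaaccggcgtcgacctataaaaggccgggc
Eif3d and Eif3m hold the ETS core within these 120 bases, and Eif3f, Eif3k and Eef2 hold the E-box.

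After UNC0638 the translation factors mostly lay slightly below their level with DMSO, and no single gene among them passed the test. With limma, 0 of the 56 genes passed an adjusted p of 0.05 in either direction, while 134 of all 19937 genes (0.672%) did, 74 higher and 60 lower (0.301%), or 115 genes with each array centred on its median (50 higher and 65 lower). The lowest adjusted p among the factors was 0.166, for Eif3d. At an unadjusted p under 0.05 there were 14 lower and 1 higher, against 6.21% lower and 6.47% higher among all genes. Of the 56 differences 49 (87.5%) lay below 0, against 46.1% of all genes. In 19 genes (33.9%) all 3 UNC0638 arrays lay below all 3 DMSO arrays, against 7.4% of all genes, and in 1 gene, Eif4g3, all 3 lay above, against 9.59%. The median log2 difference was -0.13 for the factors and 0.012 for all genes. The differences ran from -0.42 for Eif2b3 to 0.23 for Eif4g3, and 0 of the 56 exceeded 0.5 in size.

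These genes are bright on the array, and bright genes as a whole also lay below 0 more often than not. Of the 1281 genes at least as bright as the median factor, 57.7% had a difference below 0, the median was -0.034, and 15.1% had all UNC0638 arrays below all DMSO arrays. The 28 factors in that range had a median of -0.15, with 27 below 0, and the 28 dimmer ones had a median of -0.11, with 22 below 0. The part of the authors' scaling of bright probe sets in the shift was not tested. Under quantile normalization, which gives all arrays the same distribution, the median was -0.11 over the factors and -0.014 over all genes, of which 54.5% lay below 0. Under median centring, which moves every gene by the same amount, it was -0.17 over the factors and -0.034 over all genes, of which 61.1% lay below 0. Averaged over the 56 genes and set against the DMSO mean, the level was -0.15, -0.16 and -0.12 on UNC0638 arrays 1, 2 and 3, and 0.026, 0.011 and -0.037 on DMSO arrays 1, 2 and 3. On the same arrays 46, 47 and 43 of the genes, and 20, 28 and 33, lay below their DMSO mean. The UNC0638 arrays did not overlap the DMSO arrays in this average, and the median over the factors lay between -0.16 and -0.12 with any 1 array left out.

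**Figure D1:**
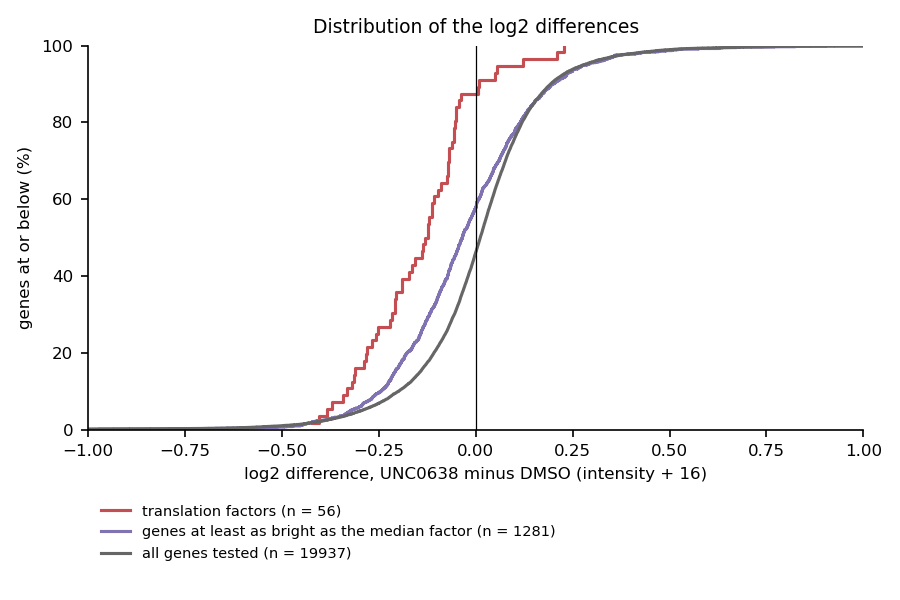
Cumulative share of genes (vertical axis, %) at or below each log2 difference of UNC0638 minus DMSO (horizontal axis, log2 of intensity + 16) for the 56 translation factors, the 1281 genes at least as bright as the median factor, and all 19937 genes tested. The factors' curve crosses 0 at 87.5%, that of the bright genes at 57.7% and that of all genes at 46.1%.

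The factors that choose the start codon and join the subunits, together with Eif1ad, made up 6 measured genes. Of these 5 lay below 0 and 0 passed the test (median -0.090). Eif1a, which encodes a form of the scanning factor eIF1A, read 455, 458 and 500.1 on the UNC0638 arrays, against 579, 546 and 565 on the DMSO arrays (log2 difference -0.25, SE 0.078, adjusted p = 0.218). The groups did not overlap, and the UNC0638 mean differed from the DMSO mean by -16.4%. Eif1ax, the X-linked gene for eIF1A, read 2750.3, 2588 and 2654 on the UNC0638 arrays, against 2955, 2818 and 2834 on the DMSO arrays (log2 difference -0.11, SE 0.074, adjusted p = 0.643). Its groups also stood apart, by a smaller margin. Eif1ad, a gene for a protein with an eIF1A-like domain, averaged 450.1 ± 52.2 with UNC0638 and 588 ± 88.5 with DMSO (SD, n = 3 each, difference -0.37, adjusted p = 0.259), without overlap. Eif5, whose product makes eIF2 hydrolyse its GTP, read 1937, 1954 and 1876 with UNC0638, against 1872, 1831 and 2048 with DMSO. Its groups lay within each other (difference 0.0053, 95% interval -0.18 to 0.19). The difference of Eif5 turned sign without some arrays. Eif1b and Eif5b, the subunit-joining GTPase, had differences of -0.073 and -0.05, both with overlapping groups.

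Of the 5 measured genes for eIF2 subunits and other factors that bring tRNA to the ribosome, 4 lay below 0 and 0 passed (median -0.16). Eif2s2, the beta subunit of eIF2, read 1916, 1694 and 1666 on the UNC0638 arrays, against 2452, 2052 and 2157 on the DMSO arrays (log2 difference -0.33, SE 0.098, adjusted p = 0.195), and -0.19 in its other probe set. Every UNC0638 value was below every DMSO value, and the mean differed by -20.8%. The gamma subunit, which holds GTP and the tRNA, has one gene on the X and one on the Y chromosome in mice. The X-linked Eif2s3x read 1986, 1762 and 2061 on the UNC0638 arrays, against 2251, 2107 and 2349.8 on the DMSO arrays (log2 difference -0.21, SE 0.09, adjusted p = 0.389), without overlap. The Y-linked Eif2s3y read 335, 322 and 432 on the UNC0638 arrays, against 421, 306 and 356 on the DMSO arrays, with groups that overlapped throughout and a difference of 0.0078 (95% interval -0.32 to 0.33) that turned below 0 with array weights. Whether the gamma genes differed from each other was not tested. Eif2a and Eif2d, which can bind tRNA to the ribosome apart from eIF2, had differences of -0.16 and -0.069.

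All 5 eIF2B subunits lay below 0, 0 passed, and their median of -0.34 was the lowest of the 9 role classes. eIF2B is the exchange factor that recharges eIF2 and the point where the integrated stress response acts. Eif2b5, the catalytic epsilon subunit, read 195, 191 and 216 on the UNC0638 arrays, against 275, 315 and 227 on the DMSO arrays (log2 difference -0.40, SE 0.12, adjusted p = 0.195). Eif2b3, the gamma subunit that pairs with epsilon, read 199, 243 and 317 on the UNC0638 arrays, against 351, 321 and 346 on the DMSO arrays (log2 difference -0.42, SE 0.15, adjusted p = 0.27). Both showed UNC0638 values that all lay below the DMSO values, with means that differed by -26.4% and -25.4%, though UNC0638 array 3 of Eif2b3 came close to DMSO array 2. Without UNC0638 array 3 the difference of Eif2b3 was -0.59 and without UNC0638 array 1 it was -0.27. Among the regulatory subunits, Eif2b1 averaged 472 ± 8.13 with UNC0638 and 536 ± 50.98 with DMSO (SD, n = 3 each, difference -0.17, adjusted p = 0.496), with groups apart. Eif2b4 read 73.5, 91.5 and 118 on the UNC0638 arrays, against 140.4, 138 and 93.1 on the DMSO arrays (difference -0.34), and Eif2b2 had a difference of -0.044, both with overlap. Relative to DMSO, the mean of the 5 genes was -0.41, -0.25 and -0.17 on the 3 UNC0638 arrays and 0.052, 0.063 and -0.11 on the 3 DMSO arrays.

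**Figure D2:**
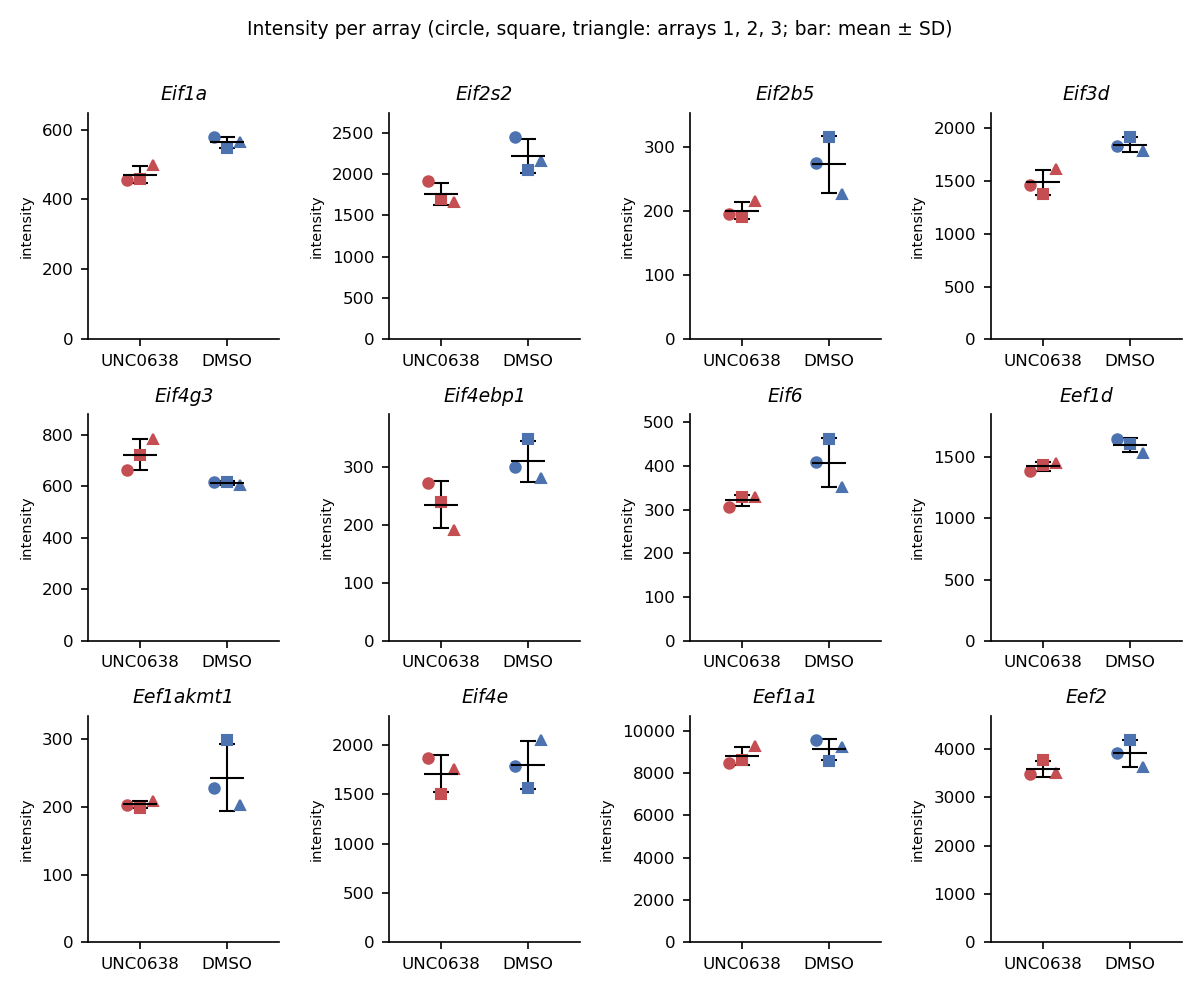
Intensity on each array (vertical axis, linear, from 0) for UNC0638 (left) and DMSO (right) in 12 genes: in each role class the gene with the lowest p, then Eif4e, Eef1a1 and Eef2. Markers are arrays 1 to 3 and bars the mean ± SD (n = 3); Eif1a, Eif2s2, Eif2b5, Eif3d, Eif4ebp1, Eif6 and Eef1d lie lower with UNC0638 without overlap, Eif4g3 lies higher, and Eef1akmt1, Eif4e, Eef1a1 and Eef2 overlap.

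eIF3 is the large scaffold that links the small subunit to eIF4G, and all 11 of its measured subunit genes lay below 0 (median -0.21, range -0.31 to -0.055). None passed the adjusted threshold in limma, 6 had an unadjusted p under 0.05, and in 6 the groups did not overlap. Among all genes 6.21% were lower at that p and 7.4% lower without overlap, and among the genes at least as bright as the median factor 12.1% and 15.1%. Eif3d, whose product can itself bind the cap of some mRNAs in human cells, read 1466, 1378 and 1618 on the UNC0638 arrays, against 1836, 1919 and 1785 on the DMSO arrays (log2 difference -0.31, SE 0.086, adjusted p = 0.166). Eif3m read 1793, 1758 and 1721 on the UNC0638 arrays, against 2052, 2082 and 2227 on the DMSO arrays (log2 difference -0.27, SE 0.075, adjusted p = 0.173), and its other probe set had a difference of -0.092. In both the groups were separate, and the means differed by -19.5% and -17.1%. The core subunit Eif3b read 877, 1082 and 929 on the UNC0638 arrays, against 1169.9, 1283 and 1079.9 on the DMSO arrays (log2 difference -0.29, SE 0.11, adjusted p = 0.296), and only the highest UNC0638 value, on array 2, touched the lowest DMSO value, on array 3. Eif3c, Eif3i, Eif3k and Eif3l also had groups that did not overlap, with differences of -0.19, -0.21, -0.21 and -0.14. Eif3e (-0.28) and Eif3f (-0.26) had overlapping groups. The smallest differences were those of Eif3a, the largest subunit, at 3319 ± 161 with UNC0638 and 3449.5 ± 163 with DMSO (SD, n = 3 each, difference -0.055, 95% interval -0.24 to 0.13) and of Eif3h (-0.09, -0.28 to 0.097). The mean of the 11 genes against DMSO was -0.21, -0.25 and -0.16 on UNC0638 arrays 1 to 3 and 0.035, 0.0033 and -0.038 on DMSO arrays 1 to 3, and all 11 lay below their DMSO mean on UNC0638 arrays 1 and 2 and 9 on array 3.

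**Figure D3:**
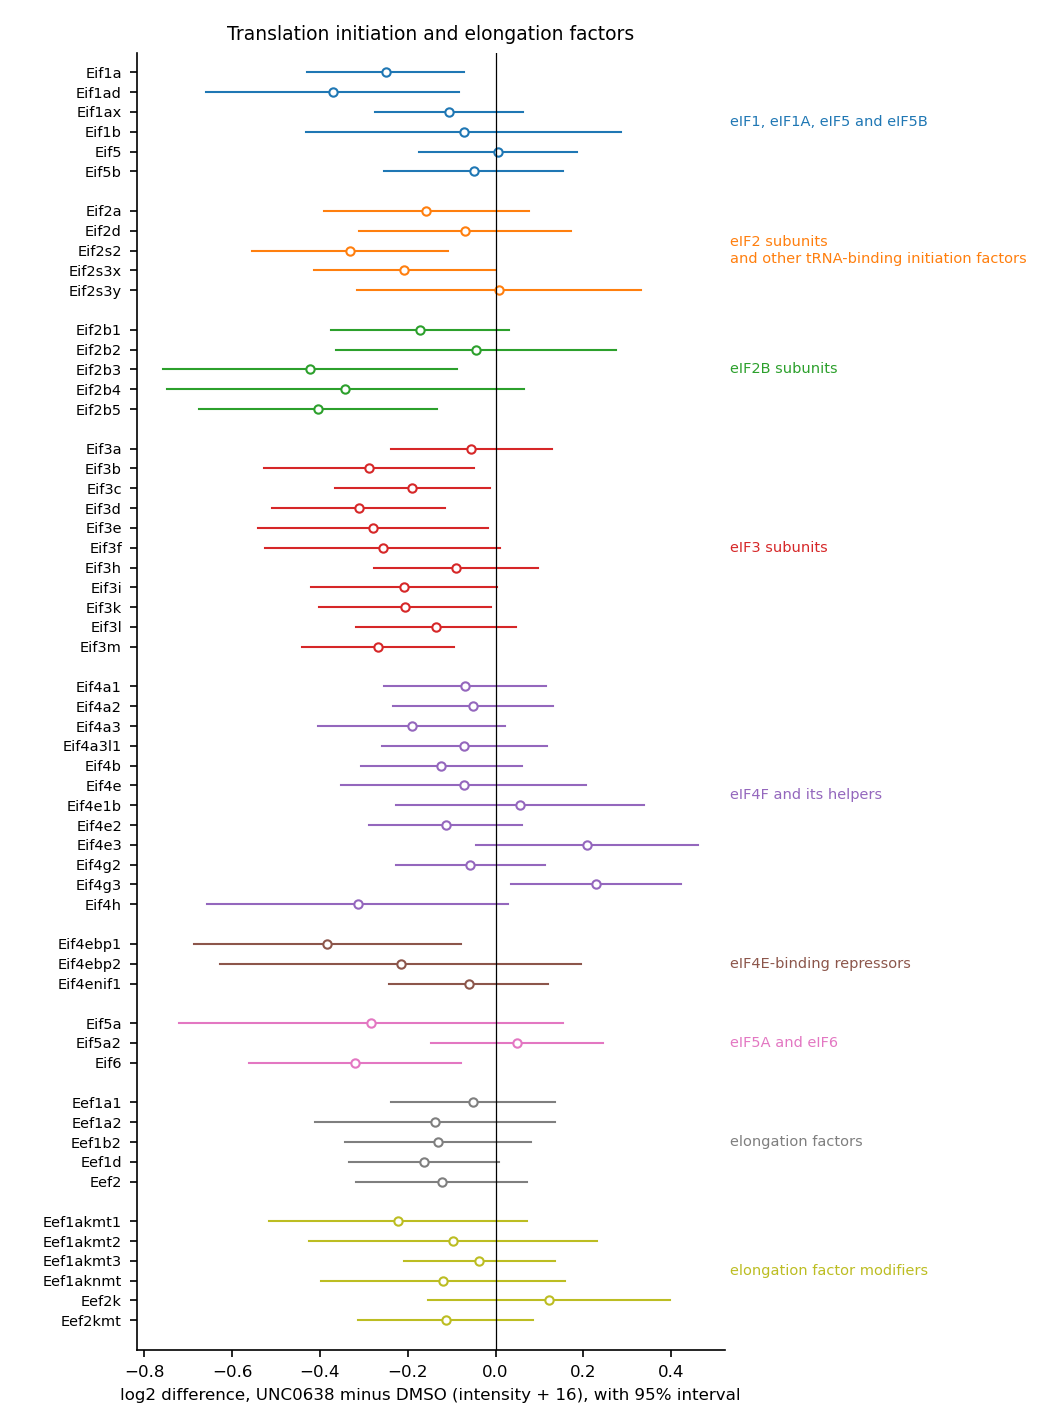
Log2 difference of UNC0638 minus DMSO (horizontal axis, log2 of intensity + 16) with its 95% interval from limma for all 56 genes, grouped by role. Open circles did not pass the adjusted threshold, and all 56 are open; the eIF3 and eIF2B subunits all lie left of 0, and Eif4g3 is the one gene whose interval lies wholly right of 0.

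The eIF4F group mixed both signs. Of its 12 measured genes 9 lay below 0 and 0 passed (median -0.070). Eif4e, the cap-binding protein and a classic regulator of growth, read 1870.3, 1501 and 1757 on the UNC0638 arrays, against 1787, 1565 and 2051 on the DMSO arrays, with full overlap (difference -0.072, 95% interval -0.35 to 0.21) and a sign that turned with 1 array left out. Eif4a1, the main helicase, read 5340.4, 5109 and 5549 on the UNC0638 arrays, against 5957, 5466 and 5374 on the DMSO arrays (difference -0.069, 95% interval -0.25 to 0.11). Its other, less bright probe sets had larger differences of -0.27 and -0.22. The paralogue Eif4a2 had a difference of -0.052. Eif4a3, a helicase of the exon junction complex, had groups apart and a difference of -0.19. The helicase stimulators Eif4b and Eif4h had differences of -0.12 and -0.31, with overlap. Eif4e2, which competes with eIF4E for the cap, had groups barely apart at -0.11, with 465.8 on UNC0638 array 3 and 466.2 on DMSO array 2. Eif4g2, a scaffold that lacks the eIF4E site, had a difference of -0.057, and the dim Eif4a3l1 had -0.071. Eif4g3, which encodes the scaffold eIF4GII, was the gene on the other side: it read 663, 720.2 and 785 on the UNC0638 arrays, against 617, 618 and 603 on the DMSO arrays (log2 difference 0.23, SE 0.085, adjusted p = 0.306). All 3 UNC0638 values were above the DMSO values, which lay within a narrow range, and the mean was 17.9% higher. Eif4e3, an unusual cap-binding relative of eIF4E, read 878, 1144 and 1070.2 on the UNC0638 arrays, against 901, 826 and 930.1 on the DMSO arrays (difference 0.21, adjusted p = 0.507), with 2 UNC0638 arrays above all DMSO arrays and 1 among them. Eif4e1b, best known from oocytes, was dim and had a difference of 0.056.

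Of the repressors that bind eIF4E, 3 of 3 measured genes lay below 0 and 0 passed. Eif4ebp1, the best-known target of mTORC1 among them and also a target of the stress factor ATF4, read 273, 240.5 and 192 on the UNC0638 arrays, against 299.9, 349.8 and 281 on the DMSO arrays (log2 difference -0.38, SE 0.13, adjusted p = 0.271). The groups did not overlap, with UNC0638 array 3 lowest, and the mean differed by -24.1%. Eif4ebp2 read 464, 419 and 294 on the UNC0638 arrays, against 481, 519 and 365 on the DMSO arrays, with overlap (difference -0.22, 95% interval -0.63 to 0.20). In both genes UNC0638 array 3 was the lowest of the 6 arrays, and without it the difference of Eif4ebp2 was -0.029. Eif4enif1, which carries eIF4E into the nucleus and into P-bodies, had a difference of -0.061.

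Eif5a encodes the hypusine-bearing factor that helps ribosomes past stalling sequences, and it read 2204, 1749 and 1247 on the UNC0638 arrays, against 2296, 2121 and 1788 on the DMSO arrays (log2 difference -0.28, SE 0.19, adjusted p = 0.63). The spread was wide, and both groups had their lowest value on array 3. Without UNC0638 array 3 its difference was -0.067. Its paralogue Eif5a2 read 87.5, 78.2 and 72.6 on the UNC0638 arrays, against 72.7, 76.2 and 79.5 on the DMSO arrays (difference 0.049, -0.011 without UNC0638 array 1), with overlap. Eif6, which keeps the large subunit from joining too early and is needed to make it, read 307, 329 and 328 on the UNC0638 arrays, against 409, 463 and 351 on the DMSO arrays (log2 difference -0.32, SE 0.11, adjusted p = 0.248). There the groups were separate, and the mean differed by -21.1%.

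All 5 measured elongation factor genes lay below 0, by little, and 0 passed (median -0.13, range -0.16 to -0.052). Eef1a1, which delivers aminoacyl-tRNA and is among the most abundant proteins of a cell, read 8478, 8625 and 9289.7 on the UNC0638 arrays, against 9559.7, 8589 and 9224 on the DMSO arrays (log2 difference -0.052, SE 0.082, adjusted p = 0.872). The values were intermixed, with a 95% interval of -0.24 to 0.13 for the difference. Eef2, the translocase, read 3466, 3774 and 3505 on the UNC0638 arrays, against 3912, 4174 and 3625 on the DMSO arrays (difference -0.12, 95% interval -0.32 to 0.072), with 1 of the 3 UNC0638 arrays among the DMSO values. The exchange factor genes Eef1b2 and Eef1d had differences of -0.13 and -0.16, and of these only Eef1d, at 1423 ± 36.5 with UNC0638 and 1595 ± 57.2 with DMSO (SD, n = 3 each, adjusted p = 0.422), had groups apart. Eef1a2, the form of muscle and neurons, was dim here at 75.8 ± 13.04 with UNC0638 and 84.6 ± 8.54 with DMSO (SD, n = 3 each, difference -0.14).

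The enzymes that modify elongation factors held 6 measured genes, 5 below 0, with 0 that passed and 0 whose groups were apart. Among all genes 0.672% passed, and 7.4% lay lower and 9.59% higher without overlap, so 0 of 6 is near those shares. Eef2k, the kinase that phosphorylates and stops eEF2, read 208, 236 and 227 on the UNC0638 arrays, against 218, 232 and 167 on the DMSO arrays (difference 0.12, 95% interval -0.15 to 0.40). Its values overlapped, and without DMSO array 3, the lowest, its difference was -0.0093. The eEF1A methyltransferase gene Eef1akmt1 read 204, 199 and 209 on the UNC0638 arrays, against 229, 299 and 202 on the DMSO arrays (log2 difference -0.22, SE 0.13, adjusted p = 0.557). DMSO array 2 alone was high there, and without it the difference was -0.073. The other 4, Eef1akmt2, Eef1akmt3, Eef1aknmt and Eef2kmt, the last a methyltransferase of eEF2, lay between -0.12 and -0.037.

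**Figure D4:**
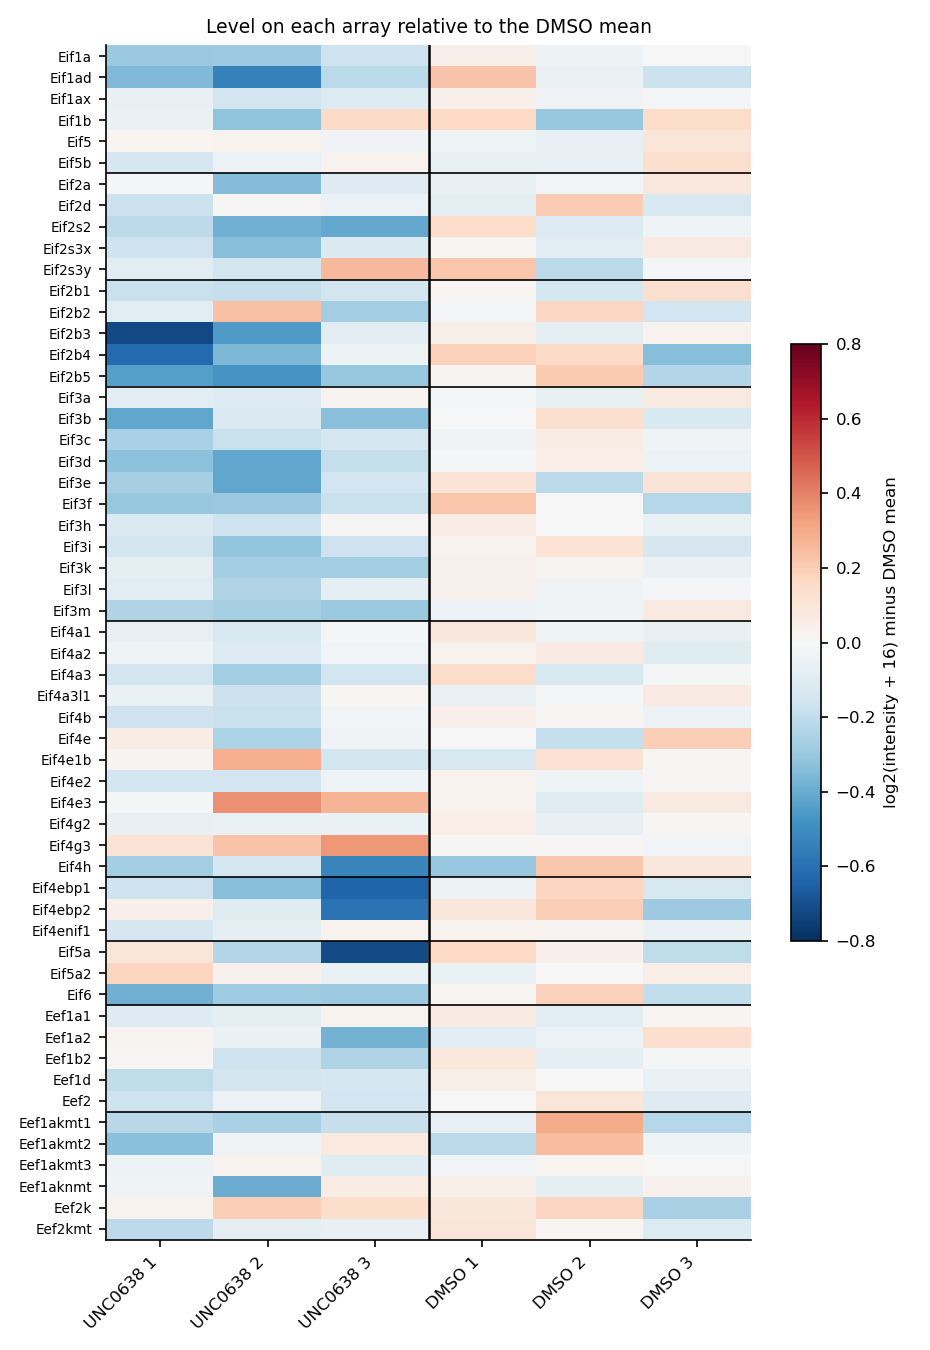
Level of the 56 genes (rows, in role order, with lines between classes) on each array (columns, UNC0638 left and DMSO right) as log2(intensity + 16) minus the gene's DMSO mean; blue is lower and red higher. On UNC0638 arrays 1, 2 and 3, 46, 47 and 43 genes are below their DMSO mean, with the deepest blue in Eif2b3 on array 1 and Eif5a on array 3, and the Eif4g3 row is red on all 3.

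For 8 of the 56 genes more than 1 probe set carried the symbol, and they did not always give the same size. Eif4a1 had 3: the one used here had a difference of -0.069, and the others, with DMSO means of 3384 and 4066, had differences of -0.27 and -0.22. The less bright sets of Eif2s2 and Eif3m had differences of -0.19 and -0.092, nearer to 0 than the sets used, and that of Eif5a had -0.20. Of the dimmer sets of Eif4e, one had a difference of -0.059 and one of 0.0068, and those of Eef2k, Eif4e1b and Eif4enif1 had 0.16, 0.17 and 0.0072. A probe set can share sequence with a processed copy of its gene, and the position of these probe sets is not in the annotation used here, so the values of Eif4a1, Eif5a, Eif4e, Eif2s2 and Eif3m are uncertain to that extent. Eif1, Eif2s1, Eif3g, Eif4g1 and Eef1g were not analysed here, nor were Eif4ebp3, Eif3j1 and Eif3j2 as single genes.

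Around the factors, 46 of 49 listed genes of the same pathway were measured. Of these 1 passed the limma test, as lower, against 0.672% of all genes in either direction and 0.301% as lower. That gene was Eif2ak2, the interferon-induced eIF2 kinase PKR. It read 192, 169 and 215 on the UNC0638 arrays, against 293, 346 and 393 on the DMSO arrays (log2 difference -0.79, SE 0.12, adjusted p = 0.0377). The UNC0638 values lay well below the DMSO values. The call ended under quantile normalization (adjusted p = 0.052), with a pseudocount of 64 (0.0907) and without UNC0638 array 1 (0.126), 2 (0.143) or 3 (0.0734) or DMSO array 2 (0.142) or 3 (0.0873), though the difference stayed between -0.89 and -0.67 in all 17 alternatives. The other 3 eIF2 kinases, Eif2ak1, Eif2ak3 and Eif2ak4, had differences of 0.017, 0.14 and -0.018, and the phosphatase subunits Ppp1r15a and Ppp1r15b had 0.13 and 0.14. Over the 46 genes 35 lay below 0 (median -0.11), and at an unadjusted p under 0.05 there were 10 lower and 1 higher, against 46.1% below 0, 6.21% lower and 6.47% higher among all genes.

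All 9 measured mitochondrial translation factors lay below 0, with a median of -0.23 and 0 past the threshold. Tsfm, the mitochondrial exchange factor of elongation, read 139, 121 and 149 on the UNC0638 arrays, against 189.8, 193 and 195 on the DMSO arrays (log2 difference -0.46, SE 0.09, adjusted p = 0.0741). Tufm, the elongation factor it serves, averaged 271 ± 17.9 with UNC0638 and 369 ± 35.1 with DMSO (SD, n = 3 each, difference -0.42, adjusted p = 0.0995). In both the groups stood clearly apart. Among the enzymes that modify elongation factors or eIF5A, Dph5, which makes the diphthamide of eEF2, read 188, 206 and 246 on the UNC0638 arrays, against 355, 307 and 307 on the DMSO arrays (log2 difference -0.57, SE 0.11, adjusted p = 0.0751), and passed with the dimmest 40% of genes left out (0.0479). Dohh, which completes the hypusine of eIF5A, had a difference of -0.33. In the class of Dph5 and Dohh 8 of 10 measured genes lay below 0 (median -0.15), while Dnajc24 (0.23) and Dph7 (0.041) lay above 0. Of 13 kinases and binding proteins around eIF4F, Mknk1, a kinase of eIF4E, lay highest at 0.31 (adjusted p = 0.303), and of 8 termination and recycling factors Denr had the lowest p (-0.18, adjusted p = 0.465).

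**Figure D5:**
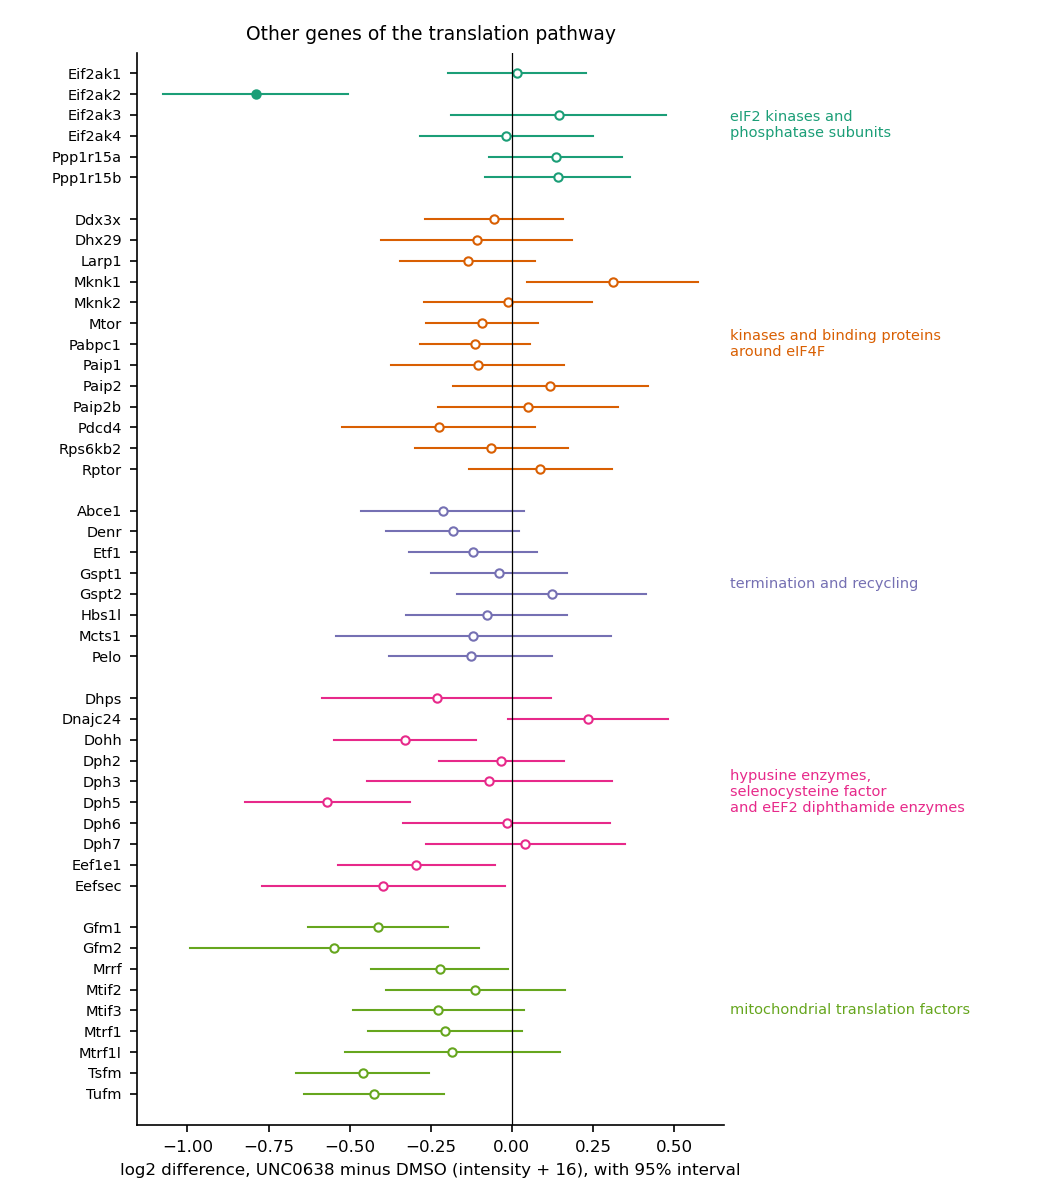
Log2 difference of UNC0638 minus DMSO (horizontal axis, log2 of intensity + 16) with its 95% interval from limma for the 46 measured genes of the translation pathway outside the factor set, grouped by role. The filled circle, Eif2ak2 at -0.79, passed the adjusted threshold and open circles did not; all 9 mitochondrial factors lie left of 0.

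Array medians were 52.7 to 54.9 with UNC0638 and 50.4 to 52.5 with DMSO, and array correlations were 0.985 to 0.987 within and 0.980 to 0.987 between groups over all probe sets. Transcripts of the inhibited enzymes did not pass: Ehmt2 (G9a) averaged 101 ± 2.4 with UNC0638 and 123 ± 13.02 with DMSO and Ehmt1 (GLP) 169 ± 12.2 with UNC0638 and 174 ± 12.2 with DMSO (SD, n = 3 each, adjusted p = 0.293 and 0.92). Every UNC0638 value of Ehmt2 lay below every DMSO value (log2 difference -0.25), while the Ehmt1 groups overlapped. Inhibition of an enzyme need not change its transcript, so these values check no label. All 14 haematopoietic and myeloid progenitor markers were measured and 0 passed the test. Their summed intensity was 28451 to 30411 with UNC0638 and 27840.1 to 28790.0 with DMSO. Of the 14, 9 lay above 0 (median 0.071), with the largest differences in Csf1r (0.52, adjusted p = 0.12) and Cd33 (0.45, adjusted p = 0.055). Csf1r is also counted among the monocyte and macrophage markers. Most markers of maturing myeloid cells did not pass the test, though their differences lay above 0. Among all genes, 74 of 19937 passed as higher and 46.1% lay below 0. Of 10 mature neutrophil markers all 10 lay above 0 and 2 passed, with sums of 16506 to 19659.6 with UNC0638 and 14708 to 15441 with DMSO. Of 8 measured monocyte and macrophage markers all 8 lay above 0 and 1 passed (9878 to 10453 against 6997 to 8954). Of 6 mast cell and basophil markers all 6 lay above 0 and 2 passed (9087 to 9717 against 7156 to 8261). Sums of 5 B cell, 5 T cell and 6 stromal markers were at most 394 on every array. Of these dim markers 4, 5 and 5 lay above 0, in that order, and 0 passed (medians 0.18, 0.16 and 0.035). A lean above 0 was thus not particular to the neutrophil, monocyte and mast cell markers, whose medians were 0.26, 0.42 and 0.28. Of 5 erythroid and 4 megakaryocyte markers 2 and 3 lay above 0. Their sums, which rest on Tfrc and Pf4, were 1345 to 1604 and 688 to 887 with UNC0638 against 1801 to 1886 and 879 to 1131 with DMSO. In bulk RNA a change in the mix of cells and a change per cell cannot be told apart, and the part of these markers in the lower factor levels was not tested.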

How the data were processed

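Total RNA had been extracted with Trizol and biotinylated cRNA made from 6 ug of it by the array maker's procedure, per the labels' protocols. The authors deposited 1 processed intensity per probe set and array; from its values this intensity is linear (2.74 to 19527), and its background correction, summarisation and scaling are not stated in the labels or the file. Unstated scaling could shift bright genes together, so quantile normalization and median centring were tried. Of 34760 probe sets 21640 carry 1 symbol, 1321 several and 11799 none; 21553 of the first were found by Entrez number in a GRCm38.p6 gene table and 0 symbols changed. Each of 19937 genes was read from its brightest single-symbol probe set, with no filter on low values, as log2(intensity + 16); folds are on that scale, which understates dim genes. UNC0638 was compared with DMSO by limma 3.58.1 (R 4.3.3; lmFit, eBayes, group only, prior of 4.47 degrees of freedom), with p-values adjusted by Benjamini and Hochberg's method across the 19937 genes and called under 0.05; adjusted p-values, SEs and 95% intervals are from that fit. It was tested on simulated data. No batch is given in the labels, and 3 arrays a group limit the precision.

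The factors, role classes and lists were chosen with earlier results of these data known. Named are, per class, the gene with the lowest p, the brightest and the one with the largest positive difference, plus a fixed list (29 genes); other members are named to account for all 56. Of the pathway genes, those that passed and the lowest p per class are named; Tufm, Dohh, Eif2ak1, Eif2ak3, Eif2ak4, Ppp1r15a and Ppp1r15b were named after their values were seen. Motifs were chosen for known regulators of housekeeping promoters. Alternatives were 2 scalings, a dim-gene filter, other probe set choices, pseudocounts of 1 and 64, a trended robust prior, array weights, a stricter threshold of 0.01, the replicate number as a block and each array left out. Figures used matplotlib 3.10.9 in Python 3.11.15.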

Additional observations from a re-analysis of the deposited data

How the results depend on the processing

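In all 17 alternatives 0 of the factors passed, with a lowest adjusted p of 0.0935 (pseudocount of 64) to 0.278 (without UNC0638 array 2); with the dimmest 40% of genes left out, 54 of the 56 were tested. Their median difference stayed below 0 throughout, at -0.17 under median centring and between -0.16 and -0.12 with 1 array left out. Of the 29 named factors 24 kept their sign in every alternative. Median centring moves all genes alike, so that Eif5 and Eif2s3y, both close to 0, were at -0.041 and -0.038; this says nothing of those genes. Eif2s3y was at -0.017 with array weights. With 1 array left out Eif5 lay between -0.027 and 0.053, Eif2s3y between -0.12 and 0.12, Eif5a2 between -0.011 and 0.10, Eif4e between -0.17 and 0.025 and Eef2k between -0.0093 and 0.21. Lower factors at an unadjusted p under 0.05 numbered 9 to 20 over the alternatives: 20 under median centring, 19 with a pseudocount of 64, 11 under quantile normalization, 10 with a pseudocount of 1, and 9 to 14 with 1 array left out (9 without UNC0638 array 1 or 2).

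The count of other pathway genes that passed was 0 under quantile normalization, 0 with a pseudocount of 64, 0 at a threshold of 0.01, 2 with the dim-gene filter and 0 to 1 with 1 array left out, and their median was -0.16 under median centring. Of all genes, 49 passed with a pseudocount of 64, 18 at the threshold of 0.01 and 10 to 69 with 1 array left out (10 without UNC0638 array 1, 31 without 2 and 40 without 3; 67, 43 and 69 without DMSO array 1, 2 and 3). Why these counts differed between settings was not tested. With the replicate number as a block 73 of all genes and 0 factors passed. Same-numbered arrays correlated at -0.066 to 0.11 in their deviations from the group means, and 2 of 6 arrays correlated best with their own number, so the number is not treated as a pairing.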

Other observations

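Some probe sets name a factor together with other genes and entered no test. The set shared by Eif3j1 and Eif3j2 with the higher signal read 2140.2, 1869.6 and 1903 on the UNC0638 arrays, against 2013, 2069 and 2233 on the DMSO arrays, with overlap. The dimmer set for the same genes, which encode the loosely bound eIF3j subunit, read 889, 906 and 916 with UNC0638, against 1153, 967 and 1043 with DMSO, without overlap (log2 difference -0.22). The set shared by Ankhd1 and Eif4ebp3, the remaining eIF4E-binding protein gene, read 288, 240.1 and 235 with UNC0638, against 288, 247 and 267 with DMSO. A set naming Eef1a1 with Mir703 and D630045J12Rik read 3407, 2801 and 2362 with UNC0638, against 3795, 2385 and 3408 with DMSO, with overlap as in the set for Eef1a1 alone. A set naming Eif1a with 7 related gene models read 942, 870.3 and 806 with UNC0638, against 1039, 976 and 1195 with DMSO, without overlap (log2 difference -0.29), next to -0.25 for Eif1a alone. Its other sets, both dimmer, had log2 differences of -0.063 and -0.17, with overlap in each. The sets shared by Eif4a3 and Eif4a3l1 read 1817, 2501 and 2585 with UNC0638, against 2765, 2175 and 2287 with DMSO in one, with overlap, and 996, 1153 and 1162 with UNC0638, against 1469.6, 1258 and 1325 with DMSO in the other, without overlap. A dim set naming Eif5 with the small nucleolar RNA Snora28 read 59.0, 59.2 and 70.6 with UNC0638, against 75.1, 52.2 and 37.3 with DMSO.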
